A study of Hordeum vulgare with 12 samples.

Results

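A set of 181 barley genes, of 22437 tested, stood higher in the mutant blf13 than in its background cultivar Bonus and at about the same level in the second mutant, nal1, as in its own wild type, Sebastian. The members were chosen by measured values: a mean of at least 1 CPM (count per 1000000 reads in genes) in blf13 and at least 0.5 CPM in Sebastian, the lowest blf13 library above the highest Bonus library, a blf13 to Bonus ratio of means of at least 1.5, and a nal1 to Sebastian ratio of means between 0.77 and 1.3. Both mutant contrasts were therefore used in the choice, and the levels in them are given as a description. CPM values are scaled between libraries by TMM factors and are not corrected for gene length, so results compare a gene's level between libraries, and a level set beside that of other genes describes read depth, not the amount of transcript. All members passed the filter on low counts, because the choice was made among genes that had passed it.

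RNA was sequenced from the lowest centimetre of the shoot of barley (Hordeum vulgare) at 7 days, with the apex included and leaf 1 taken off. The groups were blf13 in the Bonus background, Bonus, nal1 in the Sebastian background, and Sebastian, with 3 biological replicates each, every replicate a pool of 6 plants; no treatment is given for any group. Any other genetic difference between blf13 and Bonus is part of their contrast, and the 2 backgrounds differ in cultivar as well as in the mutated allele. Reads in genes ranged from 14831979 to 62995658 per library, and blf13 replicate 2 stood apart with 29.8% unmapped reads, against 10.3% to 17.8% in the others.

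As background, NARROW LEAF1 of rice encodes a plant-specific protein with a trypsin-like protease domain that affects leaf width, vein number and cell division in the young leaf, and changes in it have been tied to auxin transport. The series describes the blf13 allele as a gain of function in barley's counterpart of this gene, with broader leaves; the kind of mutation in nal1 is not given in the labels. The base of the grass shoot is where leaf cells divide and leaf width is laid down, so this tissue holds the apex, dividing leaf bases and the sheaths around them. In such a mixed piece of tissue, more cells of a type and more RNA per cell cannot be told apart. The files give gene IDs of the MorexV3 annotation without names, and the reference table matched 0 of the 81687 IDs, so members are reported by ID, level and chromosome with no function, and lists of pathway genes were not analysed here.

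The choice can be followed step by step. In 2116 of the tested genes (9.43%) the lowest blf13 library lay above the highest Bonus library, and 440 of these also had at least 1 CPM in blf13 and a ratio of at least 1.5. From these 440 genes, 59 were left out for a Sebastian mean under 0.5 CPM, 59 for a nal1 to Sebastian ratio under 0.77 and 141 for a ratio over 1.3, which left the 181 members, or 41.1%. Thus 141 of the genes raised in blf13, counted among those with at least 0.5 CPM in Sebastian, also had a higher mean in nal1 than in Sebastian by more than 1.3-fold. The share of all tested genes above that ratio is not given here. Over all tested genes, too, the nal1 contrast leaned upward, with log2 fold change quartiles of −0.12 and 0.25. The same rule with blf13 and Bonus exchanged found 74 genes. That difference in number depended on the scaling, since with cyclic loess normalization the rule found 150 genes and the exchanged rule 128.

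Most members had a mean in blf13 less than 2 times that in Bonus, and many rested on few reads. Their mean in blf13 ran from 1.01 to 81.9 CPM with a median of 3.25 CPM; over all tested genes the median read depth, on this scale without gene length, was 8.79 CPM. In Bonus the median was 1.56 CPM, in nal1 2.20 CPM and in Sebastian 2.14 CPM. The blf13 to Bonus ratio had a median of 1.67 and quartiles of 1.58 and 1.88. A ratio under 2 was found in 146 members (80.7%), between 2 and 4 in 27 and of 4 or more in 8. The nal1 to Sebastian ratio, held within its limits by the choice, had a median of 1.01. The plot of ratio against level shows the members as a band just above the limit of 1.5 with few genes far above it.

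**Figure D1:**
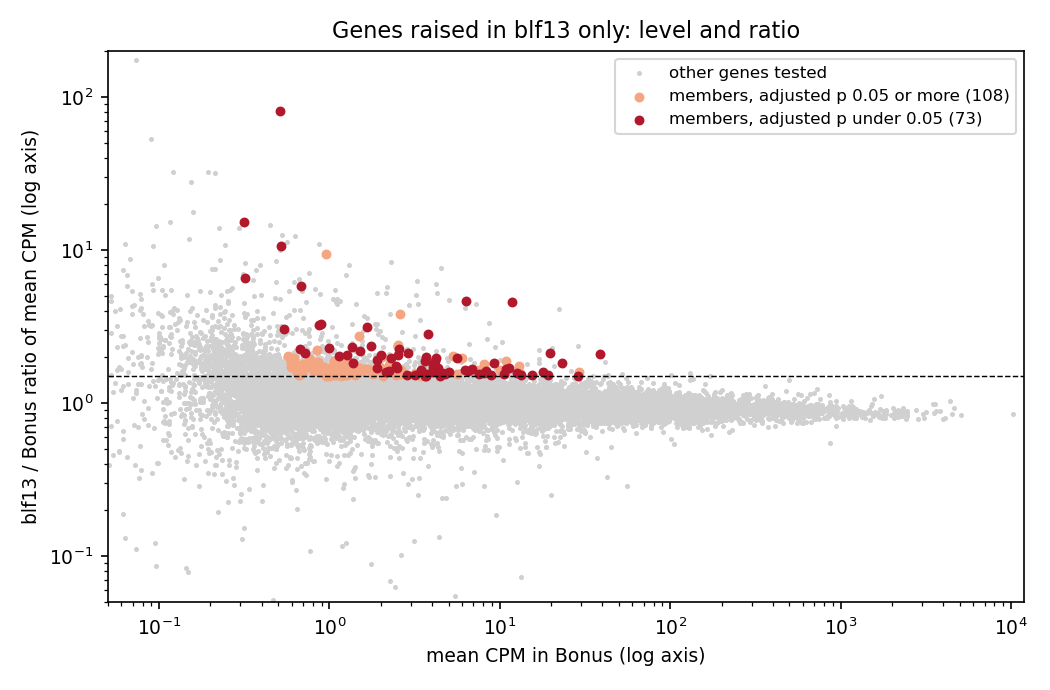
Each point is a gene, with its mean CPM in Bonus on the horizontal axis and the ratio of mean CPM in blf13 to that in Bonus on the vertical axis, both logarithmic; the dashed line marks a ratio of 1.5. Members fill a narrow band above the line, and 73 of the 181 passed the edgeR test; 372 other genes lie outside the axes and are not drawn.

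Summed over all members, the libraries fell into 3 levels. The member genes together held 1304, 1330 and 1216 CPM in blf13 replicates 1 to 3, and 676, 637 and 705 CPM in the Bonus replicates. In nal1 the sums were 884, 1007 and 973 CPM, and in Sebastian 998, 929 and 949 CPM. Sebastian and nal1 thus overlapped with each other and lay between Bonus and blf13, with no overlap with either. Much of that place came from 3 members on 3H, described further on, which carried 168 of the 286 CPM by which the mean Sebastian sum exceeded that of Bonus. Without these 3 members, a sum added after seeing the data, nal1 had 708, 843 and 801 CPM and Sebastian 829, 754 and 774 CPM. Bonus then had 671, 632 and 701 CPM and blf13 1290, 1313 and 1203 CPM, so that the order held and the lowest nal1 library was close to the highest Bonus library. The 5 members with the most CPM in blf13 carried 20.9% of its sum. The values of blf13 and Bonus follow from the choice of members, and those of nal1 against Sebastian follow from the limits on their ratio. The place of Sebastian between Bonus and blf13 is not free of the choice either, which took genes low in Bonus and high in blf13. It also required at least 0.5 CPM in Sebastian, so the order of the sums is a description.

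The member with the largest ratio among those with at least 0.5 CPM in Bonus was HORVU.MOREX.r3.7HG0715110 on chromosome 7H. It stood at 35.8, 35.7 and 53.8 CPM in the blf13 libraries and at 0.354, 0.587 and 0.604 CPM in the Bonus libraries. In nal1 it had 0.335, 0.631 and 0.590 CPM, and in Sebastian 0.775, 0.465 and 0.646 CPM. All 3 blf13 libraries were far above the other 9, which overlapped with each other. The blf13 mean was 41.8 ± 10.4 CPM (SD, n = 3) from 3975 counts. The Bonus mean was 0.515 ± 0.140 CPM (SD, n = 3) from 36 counts, which gives a ratio of 81.1.

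The next by the same rule was HORVU.MOREX.r3.1HG0021720 on 1H. Its blf13 libraries had 5.06, 5.11 and 6.26 CPM, and its Bonus libraries 0.708, 0.477 and 0.372 CPM. In nal1 the values were 0.738, 0.694 and 0.737 CPM, and in Sebastian 0.516, 0.716 and 0.760 CPM. This gene, too, was under 1 CPM in every library of the 3 other genotypes, which overlapped, and had a blf13 to Bonus ratio of 10.6.

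The member with the most CPM in blf13 and in Bonus was HORVU.MOREX.r3.7HG0726670 on 7H, named after its values were seen. It had 76.4, 81.5 and 87.7 CPM in blf13 and 38.0, 36.7 and 42.0 CPM in Bonus, a ratio of 2.10. In nal1 it had 38.6, 36.0 and 38.3 CPM, and in Sebastian 43.5, 44.9 and 48.5 CPM. Its replicates were close in every genotype, and all blf13 libraries lay above the libraries of the 3 other genotypes.

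Among members with a large ratio, HORVU.MOREX.r3.4HG0418190 on 4H, also named after its values were seen, was the most variable case. It had 16.004, 8.76 and 2.31 CPM in the blf13 libraries against 1.16, 0.734 and 0.976 CPM in Bonus. In nal1 the values were 0.604, 6.02 and 5.16 CPM, and in Sebastian 6.24, 0.644 and 2.51 CPM. The libraries of blf13, of nal1 and of Sebastian all differed widely among themselves, and those of blf13 overlapped with both. Its ratio of 9.43 was the only one of 4 or more that did not pass the edgeR test described next (adjusted p = 0.0557).

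**Figure D2:**
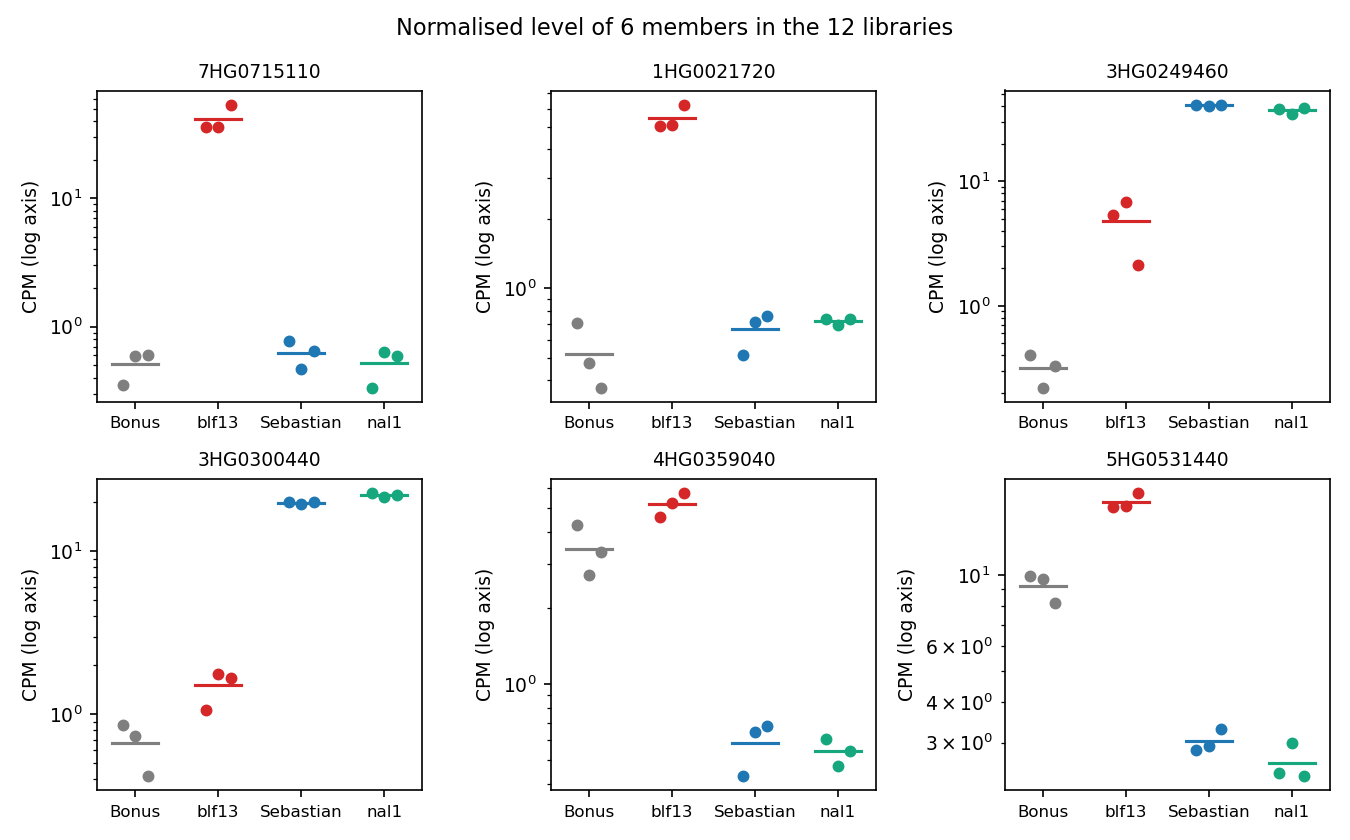
CPM of 6 members in each of the 12 libraries, with points for the 3 replicates of a genotype and a bar for their mean, on logarithmic axes that differ between panels; titles give the last part of the gene ID. The 2 genes with the largest ratio among members with at least 0.5 CPM in Bonus, 7HG0715110 and 1HG0021720, were high in blf13 libraries and low in all others, whereas in the 4 genes chosen for Sebastian against Bonus both Sebastian-background genotypes were far from Bonus, above it in 2 and below it in 2.

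How many members a test with an estimate of the spread between replicates would call was read from edgeR's quasi-likelihood test. It was fitted to all genes and all 12 libraries with Benjamini-Hochberg adjustment. For blf13 minus Bonus, 73 of the 181 members (40.3%) were higher at an adjusted p under 0.05, and over all tested genes 271, or 1.21%, were higher. Since this contrast chose the members, nothing is read from that difference. The other 108 members had adjusted p from 0.0532 to 0.325. Of the 65 members with 1 to 2 CPM in blf13 only 3 passed, against 25 of the 35 members with 10 CPM or more. By size, 27 of the 35 members with a ratio of 2 or more passed.

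The count of 73 depended on single libraries. It was 40, 36 and 90 without blf13 replicate 1, 2 or 3, and 44, 34 and 81 without Bonus replicate 1, 2 or 3. The count over all tested genes moved the same way from 271, to 121, 114 and 579 and to 135, 111 and 507. The members' count was 33 when fitted to the blf13 and Bonus libraries alone, and 27 without replicate 2 of both genotypes, which leaves out the library with the most unmapped reads. With a replicate block it was 59, and 51 with separate blocks for the pairs of each cultivar. The counts over all tested genes in these fits, in the same order, were 105 (0.499%), 80 (0.353%), 208 (0.927%) and 200 (0.891%).

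The separation between the genotypes was narrow in most members. The lowest blf13 library stood at a median of 1.22 times the highest Bonus library. It was at least 1.5 times the highest Bonus library in 30 members (16.6%) and less than 1.1 times it in 32 members (17.7%). Just inside the limit on the ratio was a gene on 3H with a ratio of 1.502, whose blf13 mean was 5.49 ± 0.115 CPM and whose Bonus mean was 3.65 ± 0.316 CPM (SD, n = 3). Just outside was a gene on 7H, at 257 ± 2.63 and 172 ± 29.8 CPM, a ratio of 1.497. Between ratios of 1.4 and 1.5 lay 99 genes that met every other condition, and between 1.5 and 1.6 lay 51 members. At the limits on nal1, the members nearest to them had nal1 to Sebastian ratios of 0.776 and 1.296, and the nearest genes outside had 0.762 and 1.302.

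The same measure was then read in libraries that had not been used in the choice. The rule was applied without replicate k of blf13 and Bonus, and the left-out pair of libraries was compared afterwards. Without replicate 1 the rule chose 259 genes, of which 227 (87.6%) had the left-out blf13 library above the left-out Bonus library. Without replicate 2 it chose 197 genes, and 178 (90.4%) were higher in the left-out pair. Without replicate 3 it chose 447 genes, and 303 (67.8%) were higher. Over all tested genes the left-out blf13 library was above its Bonus counterpart in 47.1%, 45.8% and 49% of cases, in the same order.

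In every left-out pair the chosen genes thus stood higher more often than all genes did, and replicate 3 showed this least. The sizes shrank as well. The median ratio was 1.68, 1.65 and 1.72 in the libraries used for the choice and 1.42, 1.55 and 1.14 in the left-out pairs 1, 2 and 3. A ratio of at least 1.5 recurred in 41.7%, 51.8% and 18.6% of the chosen genes, where 6.96%, 7.01% and 3.01% of all tested genes at the same minimum levels reached it. For genes with a ratio of 2 or more in the libraries used, the median in the left-out pair was 1.90, 2.13 and 1.24. Of the 181 members, 146, 128 and 158 were chosen again without replicates 1, 2 and 3, which is 80.7%, 70.7% and 87.3% of them and 56.4%, 65% and 35.3% of the genes so chosen.

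**Figure D3:**
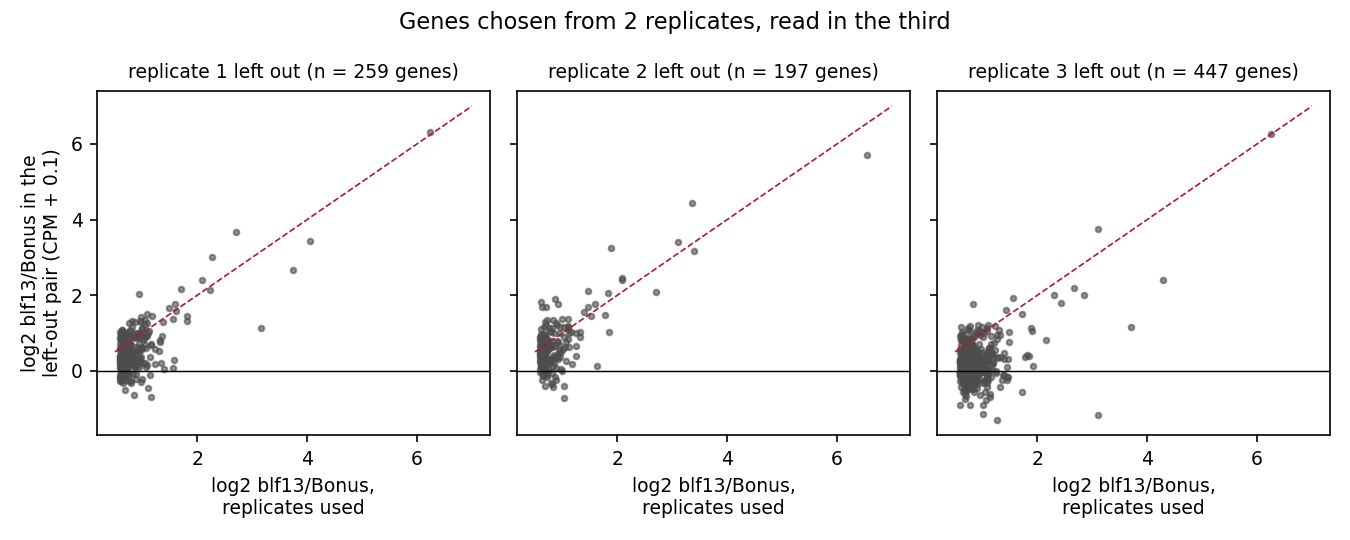
Each point is a gene chosen without 1 replicate number; the horizontal axis gives its log2 ratio of blf13 to Bonus in the replicates used for the choice, and the vertical axis its log2 ratio in the left-out pair of libraries, with 0.1 CPM added. The dashed line marks equal ratios; most points lie below it, and the share of points above 0 was 87.6%, 90.4% and 67.8% from left to right.

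Replicate 3 also stood out in the order of libraries within each genotype. Of the 3 blf13 libraries, replicate 3 was the lowest in 89 members, replicate 1 in 55 and replicate 2 in 37. Of the 3 Bonus libraries, replicate 3 was the highest in 75 members, replicate 1 in 64 and replicate 2 in 42. Replicate 3 was therefore most often the library that set the gap between the genotypes. The highest blf13 library was more evenly spread, with 58, 68 and 55 members for replicates 1, 2 and 3. Without blf13 replicate 3 the rule found 373 genes, without Bonus replicate 3 it found 295 and without Bonus replicate 1 it found 279, and 161, 159 and 158 of the 181 members were among them.

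Whether the response was particular to blf13 is a matter of the difference between both mutant effects, tested as an interaction with edgeR. The blf13 effect was above the nal1 effect in 46 members (25.4%) at an adjusted p under 0.05, against 1.83% of all tested genes, and in no member was it below at that threshold. The rule used both effects, so these members are a description. For the remaining 135 members the difference between the mutants did not pass the test, and for them a response in blf13 alone was not shown. The count was 30 without blf13 replicate 2, 28 without Sebastian replicate 3 and 25 without replicate 2 of both blf13 and Bonus. Over all tested genes, with both directions counted, it fell from 1171 (5.22%) to 574 (2.5%), 549 (2.39%) and 410 (1.81%).

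In nal1 against Sebastian 1 member passed the edgeR test, where 11.5% of all tested genes did in either direction; the limits of the rule on this ratio kept the others near 1. It was HORVU.MOREX.r3.7HG0726670, whose mean was 45.6 ± 2.57 CPM in Sebastian and fell to 37.6 ± 1.42 CPM (SD, n = 3) in nal1. The log2 difference was −0.28 ± 0.07 (SE), with an adjusted p of 0.0213 by edgeR. Its mean was thus lower in nal1 and higher in blf13 than in the wild type of each. No member passed without nal1 replicate 2 or 3 or without Sebastian replicate 2 or 3. The share of all tested genes that passed also fell in these fits, to 4.21%, 4.41%, 3.78% and 2.81% in the same order.

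The level in Sebastian relative to Bonus was not fixed by the rule, but the choice bears on it. The comparison shares the Bonus libraries in which the members had been chosen to be low. The minimum of 0.5 CPM in Sebastian also left out 59 of 440 candidates that were low there. No such minimum was set for all tested genes, so the shares below are a description. By edgeR's test, 35 members (19.3%) were higher and 10 (5.52%) were lower in Sebastian than in Bonus, against 8.44% and 9.12% of all tested genes. The mean was above that of Bonus in 134 members (74%), and in 49.6% of all tested genes. The median log2 fold change was 0.32 over the members and −0.0032 over all tested genes.

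A Bonus library that had no part in the choice was then used, for the genes chosen without it, which are other sets than the 181 members. Their median ratio of the Sebastian mean to the left-out Bonus library was 1.07, 1.14 and 1.03 for replicates 1, 2 and 3. The members against all Bonus libraries had 1.24. Over all tested genes at the same levels, these ratios were 0.9996, 0.979 and 1.003. The count of 35 higher members was 21 without replicate 2 of both blf13 and Bonus, and the count of 10 lower members was 8. In that fit 1650 (7.28%) of all tested genes were higher and 1462 (6.45%) were lower.

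Set beside both Bonus-background genotypes, Sebastian lay between them in 104 members (57.5%), at or above blf13 in 30 (16.6%) and at or below Bonus in 47 (26%). In 85 members (47%) every blf13 library lay above all 9 libraries of the other genotypes, which held for 3.2% of all tested genes. The rule favours that pattern, and the share is given as a description. In 68 members the means of both Sebastian and nal1 were within 1.3-fold of the Bonus mean. The rule had already held nal1 close to Sebastian, and the share over all tested genes was not computed, so nothing is read from this count.

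**Figure D4:**
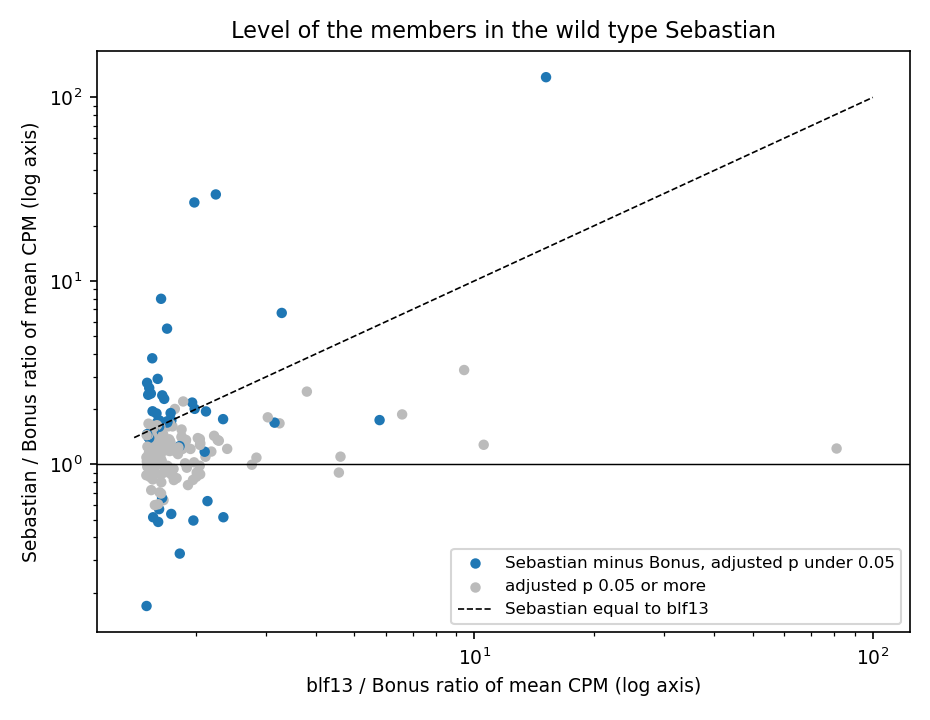
For each of the 181 members, the ratio of mean CPM in blf13 to Bonus is on the horizontal axis and the ratio in Sebastian to Bonus on the vertical axis, both logarithmic; the solid line marks Sebastian equal to Bonus and the dashed line Sebastian equal to blf13. Most points lie between the lines, 30 lie on or above the dashed line and 47 on or below the solid line; filled blue points passed the edgeR test for Sebastian minus Bonus.

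The members farthest above Bonus in Sebastian were on chromosome 3H. HORVU.MOREX.r3.3HG0249460 had 40.8, 40.3 and 41.4 CPM in Sebastian and 38.5, 34.9 and 38.6 CPM in nal1. It had 5.36, 6.88 and 2.13 CPM in blf13 and 0.405, 0.220 and 0.325 CPM in Bonus. The blf13 libraries were thus above Bonus and far below both Sebastian-background genotypes, with no overlap on either side. On the log2 scale Sebastian exceeded Bonus by 7.04 ± 0.37 (SE), with an adjusted p of 9.16e-09 by edgeR.

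HORVU.MOREX.r3.3HG0300440 had 20.01, 19.5 and 20.01 CPM in Sebastian and 22.7, 21.6 and 22.1 CPM in nal1. Its blf13 libraries had 1.06, 1.77 and 1.68 CPM and its Bonus libraries 0.860, 0.734 and 0.418 CPM. The log2 difference of Sebastian from Bonus was 4.88 ± 0.19 (SE), with an adjusted p of 3.65e-10 by edgeR. The next tested gene on the chromosome in ID order, HORVU.MOREX.r3.3HG0300470, was also a member and is named for that place, after its values were seen. It had 8.17, 8.22 and 8.63 CPM in blf13, 3.995, 4.40 and 4.23 CPM in Bonus, and 108 to 115 CPM in the 6 Sebastian-background libraries. Both neighbours were thus near 2-fold higher in blf13 than in Bonus and more than 10-fold below Sebastian.

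These 3 genes were set against other genes that were high in Sebastian and low in Bonus. There were 35 tested genes with at least 10 CPM in Sebastian and at least 20 times the Bonus mean, and 23 of them had under 0.1 CPM in blf13. The gain of blf13 over Bonus, as a share of the Sebastian level, had a median of 0.106% over the 35 genes. It was 11%, 4.21% and 3.67% in HORVU.MOREX.r3.3HG0249460, HORVU.MOREX.r3.3HG0300440 and HORVU.MOREX.r3.3HG0300470. The 3 members are among the 35 genes and had been chosen for a gain in blf13, which the other genes had not. The comparison therefore describes the values and cannot show whether these members are unusual.

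The members farthest below Bonus in Sebastian showed the reverse order of the backgrounds. HORVU.MOREX.r3.4HG0359040 had 4.59, 5.25 and 5.73 CPM in blf13 and 4.30, 2.71 and 3.35 CPM in Bonus. It had 0.430, 0.644 and 0.679 CPM in Sebastian and 0.604, 0.473 and 0.541 CPM in nal1, and the log2 difference of Sebastian from Bonus was −2.49 ± 0.21 (SE), with an adjusted p of 1.22e-06 by edgeR. Its ratio of blf13 to Bonus, 1.504, was at the limit of the rule.

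HORVU.MOREX.r3.5HG0531440 had 16.3, 16.4 and 18.0 CPM in blf13 and 9.91, 9.68 and 8.18 CPM in Bonus. Its Sebastian libraries had 2.84, 2.93 and 3.297 CPM and its nal1 libraries 2.41, 3.00 and 2.36 CPM. Here the replicates were close, the 2 Bonus-background genotypes did not overlap, and Sebastian differed from Bonus by −1.60 ± 0.12 (SE) on the log2 scale, with an adjusted p of 2.39e-07 by edgeR.

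Members lay on all 7 chromosomes. The most, 40, were on 5H (22.1% of members, against 15.9% of tested genes), followed by 35 on 7H (19.3% against 14.6%) and 33 on 3H (18.2% against 15.3%). There were 29 on 2H, 16 on 4H and 14 each on 1H and 6H, and none among the 47 tested genes without a chromosome. Each chromosome was divided by gene order into 10 parts with equal numbers of tested genes. On 5H every part held members, from 2 to 7 of 357 tested genes. On 7H part 2 held 8 members of 328 tested genes (2.44%) and part 6 held 0. These shares are a description, without a test.

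**Figure D5:**
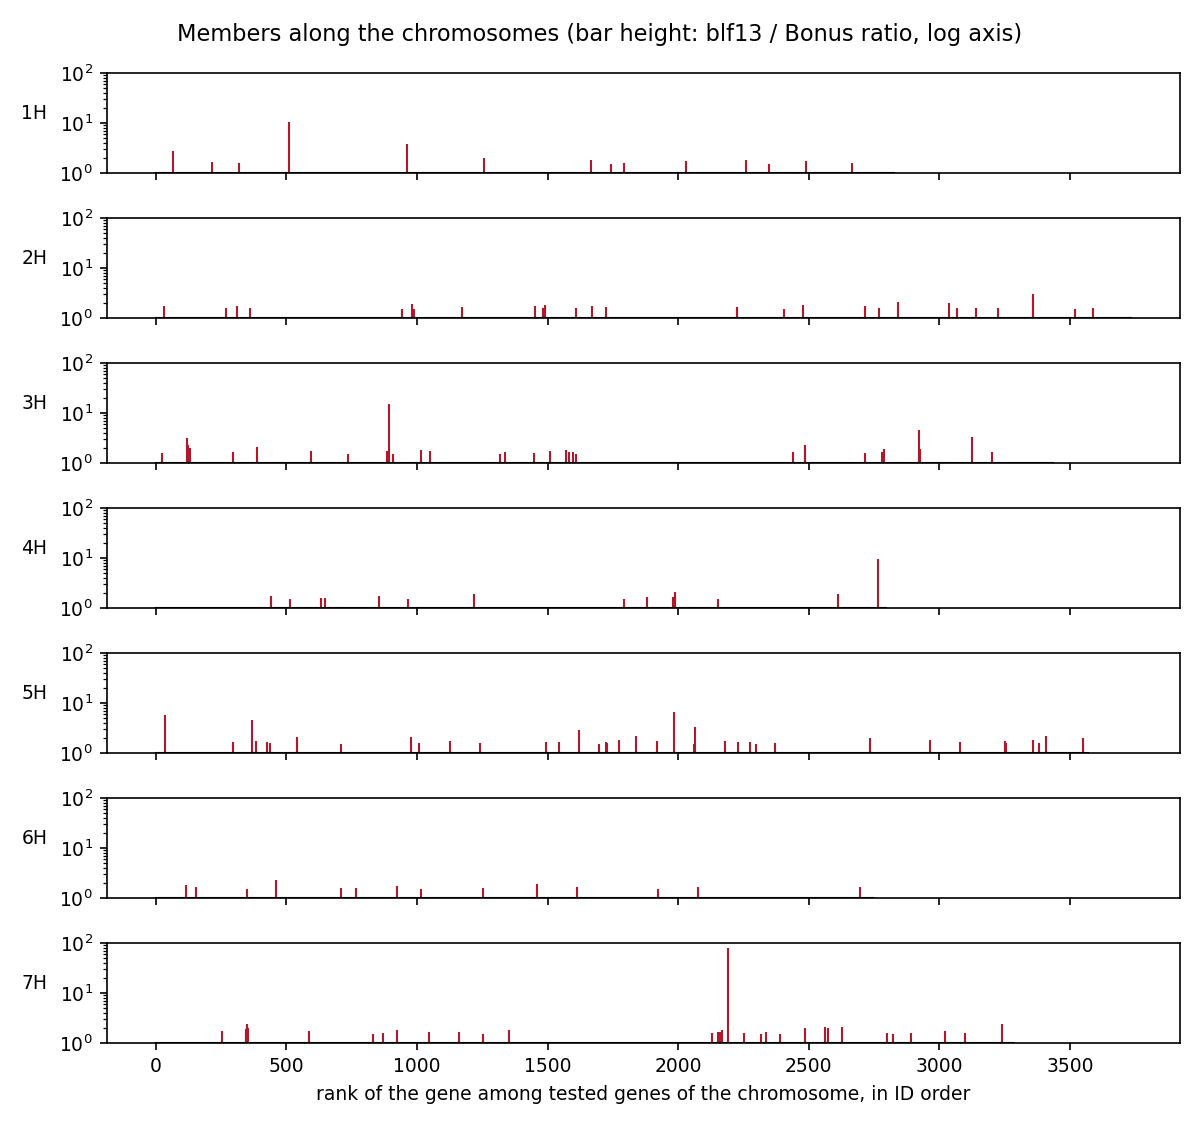
Members along chromosomes 1H to 7H, placed by rank among the tested genes of the chromosome in ID order; the height of a bar is the ratio of mean CPM in blf13 to Bonus on a logarithmic axis. Bars are spread over all chromosomes, the highest is HORVU.MOREX.r3.7HG0715110 with a ratio of 81.1, and the group near rank 350 on 7H is the run of 7 members.

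Some members were neighbours. In 23 members (12.7%) the next tested gene on at least one side was also a member, which held for 1.58% of all tested genes. Members no more than 5 tested genes apart formed 12 runs with 31 members. The 331 other genes next to a member had a median log2 fold change of blf13 minus Bonus of 0.0093, and 52% of them were above 0, against 47.1% of all genes outside the set. The typical gene beside a member thus had about the same level in blf13 as in Bonus.

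The longest run held 7 members among 8 consecutive tested genes on 7H, from HORVU.MOREX.r3.7HG0649480 to HORVU.MOREX.r3.7HG0649590, and was singled out after its values were seen. Their blf13 to Bonus ratios ran from 1.62 to 2.40, and 2 of the 7 passed the edgeR test for blf13 minus Bonus. One of them, HORVU.MOREX.r3.7HG0649590, had an edgeR adjusted p of 0.0384, and of 0.0557 with a replicate block. The eighth gene, HORVU.MOREX.r3.7HG0649570, had a ratio of 2.27 and was not a member because its nal1 to Sebastian ratio lay outside the limits. Summed over the 7 members, the run had 57.5, 85.2 and 48.2 CPM in the blf13 libraries and 30.4, 32.8 and 36.5 CPM in the Bonus libraries. In nal1 the sums were 19.1, 41.5 and 25.9 CPM, and in Sebastian 35.0, 26.0 and 31.7 CPM.

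The blf13 libraries did not overlap with those of any other genotype in this sum, and they differed widely among themselves. Replicate 2 was the highest blf13 library in all 8 genes, and it is the library with 29.8% unmapped reads; the part of that share in the values was not tested. In nal1, replicate 2 was the highest library in 7 of the 8 genes. In Bonus the highest library was replicate 3 in 6 genes and replicate 2 in 2, and in Sebastian it was replicate 1 in 5, replicate 3 in 2 and replicate 2 in 1. At the ends of the run, HORVU.MOREX.r3.7HG0649480 had 1.70, 2.64 and 1.92 CPM in blf13 and 0.860, 1.17 and 1.53 CPM in Bonus. HORVU.MOREX.r3.7HG0649590 had 6.17, 9.71 and 6.36 CPM in blf13 and 3.84, 2.97 and 4.28 CPM in Bonus. Near-identical copies in such a run would lose reads that map to more than 1 place, and whether these genes are copies of each other cannot be read from the files.

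Other runs were shorter. Runs of 3 members lay on 3H at ranks 121 to 123, with ratios of 1.62 to 3.15, and at ranks 2923 to 2927, with ratios of 1.64 to 4.57. The remaining 9 runs were pairs, of which 4 lay on 5H.

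The strand of the reads gave a further check of single members. The library kit does not mark strand, and the share of sense reads was 50.5% to 50.7% per library. Where a gene overlaps another on the opposite strand, reads in the overlap are left out of the unstranded count, and the counts of both strands then add up to more than it. That sum exceeded the unstranded count by more than 1.1 times in 2 members (1.1%), against 1.58% of all tested genes. HORVU.MOREX.r3.7HG0720070 had 2.68 times its unstranded count and HORVU.MOREX.r3.3HG0311210 had 1.496 times, and their values are uncertain. Counts on the sense strand alone, which hold fewer reads, gave 228 genes by the same rule and 107 of the 181 members (59.1%).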

How the data were processed

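Each deposited file holds the authors' raw counts of 1 library by gene, arranged as STAR writes its gene counts; the submitters' processing notes name STAR 2.7.3a. What build the reads were aligned to and how they were trimmed is not given in the sources used here. Counts without regard to strand were used. The 4 summary lines, 15.7% to 37.9% of reads, were kept out of library sizes. STAR gives reads with more than 1 alignment, or within more than 1 gene, to no gene. Totals are given in the report; their depth limits genes near 1 CPM most. Replicates of a genotype differed by 3.98 to 11.8 times sampling noise (chi-square divided by its degrees of freedom); no library was a copy of another. Each replicate is a pool of plants, and p-values rest on an estimate of the spread between pools.

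Low counts were removed with filterByExpr by genotype, and CPM used TMM factors over 12 libraries. Contrasts came from edgeR 4.0.16 under R 4.3.3 (quasi-likelihood F test, 1 coefficient per genotype, Benjamini-Hochberg, adjusted p under 0.05 over 22437 genes); standard errors come from the F statistic. The procedure was also run on simulated counts, and the outcome of that run is not given here. DESeq2 1.42.0, RLE factors, cyclic loess (limma 3.58.1), no filter, left-out libraries, replicate blocks, other limits of the rule and sense-strand counts were tried. Deviations from the genotype means (log2 of CPM + 0.5) were correlated across genes between blf13 and Bonus. For replicates 1, 2 and 3, r was 0.234, 0.289 and 0.230, all over 0.1. On that basis the pairing was accepted for the fits with replicate blocks only, and the main tests used no block. With blocks by cultivar, 51 members instead of 73 were higher for blf13 minus Bonus. By the interaction, 37 members instead of 46 passed. Over all tested genes, 200 (0.891%) instead of 271 (1.21%) were higher for blf13 minus Bonus. By the interaction in either direction, 953 (4.25%) instead of 1171 (5.22%) of them passed. Between nal1 and Sebastian r was −0.126, −0.039 and 0.094. The labels do not state a pairing.

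The members and comparisons were chosen with earlier results of these data known. Named IDs were the 2 members with the largest blf13 to Bonus ratio among those with at least 0.5 CPM in Bonus, and the 2 with the highest and the 2 with the lowest Sebastian to Bonus ratio; others are said to be named after their values were seen.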

Additional observations from a re-analysis of the deposited data

Results flagged for a closer look

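The mutant effects differed between the cultivar backgrounds, by edgeR's interaction test at an adjusted p under 0.05, in 46 of the 181 members. Over all tested genes, 1171 (5.22%) passed in either direction, and in 411 (1.83%) the blf13 effect was the higher. The rule that chose the members used both effects, so the count of 46 is a description. Among the genes named, the log2 fold change in blf13 exceeded that in nal1 by 6.50 in HORVU.MOREX.r3.7HG0715110, 3.33 in HORVU.MOREX.r3.1HG0021720, 4.08 in HORVU.MOREX.r3.3HG0249460, 1.08 in HORVU.MOREX.r3.5HG0531440, 1.36 in HORVU.MOREX.r3.7HG0726670 and 1.00 in HORVU.MOREX.r3.3HG0300470. Background and mutant allele cannot be told apart in that difference.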

How the results depend on the processing

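The number of members depended on the limits of the rule and on single libraries. It was 35 with a ratio of at least 2, 514 with a lower limit on the ratio, 112 with narrower limits on nal1, and between 168 and 373 when 1 library was left out. Without replicate 1 or 3 of both blf13 and Bonus, alternatives chosen after seeing the data, it was 259 and 447. With RLE factors it was 196, with cyclic loess 150, of which 119 were among the 181, and without the filter 216.

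Counts of members called moved as well. For blf13 minus Bonus they were 118 without the filter, 33 with the blf13 and Bonus libraries alone and 27 without replicate 2 of both. Over all tested genes, 1095 (2.73%), 105 (0.499%) and 80 (0.353%) were higher in the same order, against 271 (1.21%) in the main fit. Leaving out 1 library gave 34 to 90 members and 111 to 579 of all tested genes. The interaction gave 75 without the filter, 25 without replicate 2 of both and 28 to 54 with 1 library left out. Over all tested genes, in either direction, it gave 2210 (5.5%), 410 (1.81%) and 549 to 1541, against 1171 (5.22%) in the main fit. For Sebastian minus Bonus, 21 members were higher without replicate 2 of both, where 1650 of all tested genes (7.28%) were. Leaving out 1 library gave 25 to 40 higher and 7 to 11 lower members. Over all tested genes it gave 1387 to 2025 higher and 1583 to 2310 lower, against 1893 and 2046 in the main fit. For nal1 minus Sebastian the count of 1 became 3 without the filter, 2 with a replicate block and 2 with the nal1 and Sebastian libraries alone. Over all tested genes it was 3672 (9.15%), 2612 (11.6%) and 3187 (15.1%) in the same order, against 2590 (11.5%) in the main fit. With 1 library left out it was 0 to 3 members and 647 to 3123 of all tested genes. With a replicate block, no other count moved by over 1.5 times; with blocks by cultivar the edgeR adjusted p of HORVU.MOREX.r3.3HG0300440 for blf13 minus Bonus went from 0.0256 to 0.0562. DESeq2 gave 93 members higher in blf13 and 56 by the interaction, and over all genes it tested 432 (1.93%) and 1583 (7.83%).

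The share of chosen genes higher in the left-out pair became 94.1%, 94.9% and 69.4% for replicates 1, 2 and 3 with a ratio of at least 2, against 87.6%, 90.4% and 67.8%. HORVU.MOREX.r3.7HG0649480 had a log2 fold change of 0.13 for Sebastian minus Bonus without Bonus replicate 3, against −0.078 with all libraries, and leaving out 1 library gave −0.25 to 0.13. Of the other values of single genes under alternatives, 599 kept direction and side of the threshold, 24 fell short of it and 14 passed it. The cause of these changes was not tested.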
